A study of Mus musculus with 2 samples.

Results

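EP300 binding at CpG-poor promoters was described in the liver of newborn mice, where 2402 peaks of the optimal list met the definition, out of 26844 peaks on chromosomes 1 to 19 and X. A peak belonged to the set when its summit lay within 1 kb of the transcription start site (TSS) of a protein-coding gene, when no pair of different genes starting head to head, away from each other, had both TSSs within 1 kb of it, and when the sequence from 250 bases before to 250 bases after its summit had a GC share below 0.5 or a CpG observed/expected ratio below 0.6. The ratio divides the number of CG dinucleotides by the number that the C and G content of the window would give. The members made up 48.5% of the 4951 peaks at single-gene promoters (95% exact Clopper-Pearson interval 47.1 to 49.9), and the other 2549, called CpG-rich here, were the set they were compared with. The signal of a peak played no part in the choice. The labels give 1 group, liver of mice of strain B6NCrl aged 0 days, immunoprecipitated with an antibody to EP300, in 2 replicates with no treatment or mutation named. The sex was not collected. The replicates are numbered as biological replicates but carry 1 biosample label and 1 donor label, so they differ, by these labels, in library and immunoprecipitation only. No second condition was compared, and no p-value is given, because peaks of the same libraries are not replicates.

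EP300 is a histone acetyltransferase without DNA sequence preference of its own, and transcription factors bring it to enhancers and promoters. Most promoters of broadly used genes lie in CpG islands, while many genes used in 1 differentiated cell type start in CpG-poor sequence, often with binding sites of that cell type's factors near the start. The newborn liver holds hepatocytes and still holds red cell precursors, in which GATA1, TAL1 and KLF1 act at erythroid genes, while HNF4A, FOXA and C/EBP factors act at hepatocyte genes. In such a bulk tissue, fewer cells of a type and less binding per cell cannot be told apart.

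The sequences of members with high signal at red cell genes are shown first, because GATA words lay close to most of the strongest summits. Each run is on mm10, on the strand of its gene, 5′ to 3′, within 50 bases of the summit, and outside every annotated exon. Capitals mark the GATA words searched for on both strands (AGATAA, also with T as the first base or G as the last, and the reverse complements), except at Hbb-bt, where the window reaches 100 bases upstream and capitals mark the KLF word (CCNCACCC, the type of sequence that KLF1 binds). The KLF word of Add2 is in lower case.
Tmcc2 (chr1:132367938-132368038, minus strand): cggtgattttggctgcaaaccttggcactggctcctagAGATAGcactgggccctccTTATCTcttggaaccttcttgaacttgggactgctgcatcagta
Slfn14 (chr11:83286738-83286838, minus strand): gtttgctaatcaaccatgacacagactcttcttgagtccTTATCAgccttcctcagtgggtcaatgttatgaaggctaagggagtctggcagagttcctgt
Trim10 (chr17:36869403-36869503, plus strand): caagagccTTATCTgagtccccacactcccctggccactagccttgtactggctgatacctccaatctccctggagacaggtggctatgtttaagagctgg
Cpox (chr16:58670122-58670222, plus strand): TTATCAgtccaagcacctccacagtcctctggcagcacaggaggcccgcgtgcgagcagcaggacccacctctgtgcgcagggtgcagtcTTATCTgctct
Nfe2 (chr15:103251766-103251866, minus strand): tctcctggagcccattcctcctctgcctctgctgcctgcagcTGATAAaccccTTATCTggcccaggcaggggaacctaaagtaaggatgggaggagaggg
Add2 (chr6:86077934-86078034, plus strand): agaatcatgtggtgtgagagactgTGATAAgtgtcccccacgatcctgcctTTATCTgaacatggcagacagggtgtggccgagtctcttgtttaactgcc
Gfi1b (chr2:28622016-28622116, minus strand): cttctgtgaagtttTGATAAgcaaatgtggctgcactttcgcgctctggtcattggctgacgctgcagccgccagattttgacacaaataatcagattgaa
Hbb-bt (chr7:103813997-103814100, minus strand): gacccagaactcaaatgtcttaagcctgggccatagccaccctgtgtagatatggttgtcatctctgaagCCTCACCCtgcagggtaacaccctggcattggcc

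At hepatocyte genes the capitals mark words of the C/EBP type (TTNNGCAA), the FOXA type (TGTTTAC, also with A as the second base or G as the sixth, but not both), the HNF4A type (CAAAGNNCA) and the HNF1 type (GTTAATNAT), on either strand. They are shown as examples that hold such words. A GATA word was the most frequent at hepatocyte members too, at 22.7%, against 15.5% for HNF4A, 13.4% for FOXA and 12.4% for C/EBP. It was also the most frequent in windows of the same length beside the summits of all members. There the shares were 13.4% for GATA, 2.33% for HNF4A, 4.02% for FOXA and 3.52% for C/EBP. Relative to those windows, the GATA word stood out less at hepatocyte members than these hepatocyte words. The pair of GATA words in Fgb is in lower case. Alb, the gene of serum albumin, was added after its values were seen, and its window reaches 100 bases upstream. Alb also held a GATA word within 50 bases of its summit, outside the run shown.
Fga (chr3:83025953-83026053, plus strand): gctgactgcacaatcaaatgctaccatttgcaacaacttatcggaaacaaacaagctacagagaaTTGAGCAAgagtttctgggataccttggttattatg
Fgb (chr3:83049884-83049984, minus strand): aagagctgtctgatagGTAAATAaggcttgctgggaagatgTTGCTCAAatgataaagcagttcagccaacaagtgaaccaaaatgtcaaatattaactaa
C3 (chr17:57228167-57228267, minus strand): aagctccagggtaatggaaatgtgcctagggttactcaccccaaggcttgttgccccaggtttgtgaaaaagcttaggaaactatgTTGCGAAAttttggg
F11 (chr8:45262032-45262131, minus strand): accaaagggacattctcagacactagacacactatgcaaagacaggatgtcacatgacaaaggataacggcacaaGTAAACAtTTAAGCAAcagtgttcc
Kng1 (chr16:23058146-23058246, plus strand): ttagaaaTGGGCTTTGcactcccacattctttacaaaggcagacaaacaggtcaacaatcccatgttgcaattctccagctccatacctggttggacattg
Cyp8b1 (chr9:121916306-121916403, minus strand): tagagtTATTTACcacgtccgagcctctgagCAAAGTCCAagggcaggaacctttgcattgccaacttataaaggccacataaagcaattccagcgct
Alb (chr5:90460784-90460896, plus strand): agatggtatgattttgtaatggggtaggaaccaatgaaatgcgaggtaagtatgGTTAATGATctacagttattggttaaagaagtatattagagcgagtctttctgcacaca
A match describes letters and does not show which protein was bound.

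In these examples the summits lay just upstream of the start. The summit of Fga, which encodes the fibrinogen alpha chain, lay 73 bases upstream of its TSS, that of C3, the central complement component, 81 bases, and that of Cyp8b1, a sterol hydroxylase of bile acid synthesis, 48 bases. The summit of Tmcc2 lay 101 bases upstream and that of Trim10, a RING finger protein of maturing red cells, 121 bases upstream. Across all 2402 members the median distance to the nearest TSS was 271 bases (quartiles 94 and 599.8), against 102 bases (quartiles 41 and 199) for CpG-rich peaks. The members' median depended on the distance allowed, at 146 bases for a limit of 500 bases and 626 for 2 kb. Upstream summits made up 67.4% of members and 70.8% of CpG-rich peaks. Only 26.4% of members (interval 24.6 to 28.2) lay within 100 bases of the TSS, against 49.7% of CpG-rich peaks (47.7 to 51.7), and 30.6% of members lay more than 500 bases away, against 5.53%. The members therefore mixed peaks at the start itself with peaks spread over the whole 1 kb on both sides. Composition was taken at the summit, and the members' TSS windows had a higher median CpG ratio (0.498) than their summit windows (0.364). Summits away from a start thus meet the limits more easily, so the distance difference between the classes is in part built in. Members more often lay in introns (43.8% of members against 18% of CpG-rich peaks) and less often in exons (14.4% against 30.3%). The nearest TSS was the first TSS of its gene, or within 500 bases of it, for 69.0% of members and 89.5% of CpG-rich peaks.

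**Figure D1:**
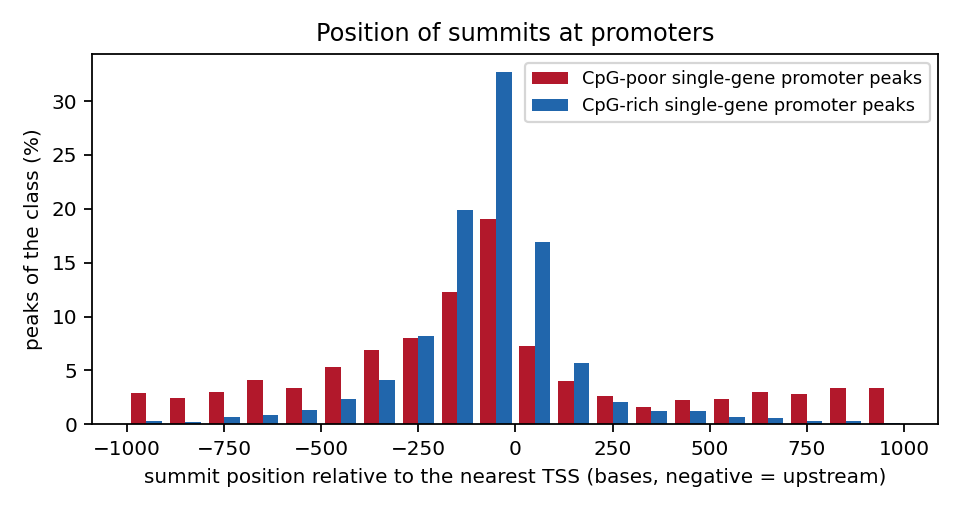
Summit position relative to the nearest TSS in 100-base bins (x axis, bases, negative upstream) and the percent of the class's peaks in each bin (y axis), for CpG-poor peaks (red, n = 2402) and CpG-rich peaks (blue, n = 2549). Both classes are highest just upstream of the TSS, and 30.6% of the CpG-poor peaks, against 5.53% of the CpG-rich peaks, lie beyond 500 bases. Composition was taken at the summit, so this difference is in part built in.

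Low CpG content at the summit did not always mean a CpG-poor start. A window of the same length around the TSS itself met the same composition limits for 1489 members (62%, interval 60 to 63.9), while the other 913 (38%) lay beside a CpG-rich start. Those 913 were farther from the TSS (median 470 bases, against 147 for the 1489). That difference is largely built in, because the windows of a summit near its TSS and of the TSS itself overlap. The 913 also had lower signal, with a median of 29.68 against 37.30 in the optimal list, 23.14 against 27.31 in replicate 1 and 11.94 against 13.62 in replicate 2. Depdc1b and Cpox, the gene of coproporphyrinogen oxidase in heme synthesis, are strong examples beside CpG-rich starts. Among all members the CpG ratio did most of the selecting: 1021 members fell below the CpG limit alone, 295 below the GC limit alone and 1086 below both. Median GC content was 49.1% in members and 59.9% in CpG-rich peaks, with median CpG ratios of 0.364 and 0.811, and 6 members had no CpG at all in the window. Distal peaks, those with no protein-coding TSS within 1 kb, had medians of 45.9% and 0.214, and 98.7% of them would have met the composition limits.

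The limits cut through a continuous range. Just inside the GC limit lay Exoc6 and Cnot6, each at 49.9% GC, and just outside lay Pot1a and Fmc1, each at 50.1%. Just inside the CpG limit lay Mef2d at 0.599 and Anks1 at 0.5985, and just outside lay Arid1a at 0.6003 and Car2 at 0.6005. Members at Psmb3 and Gm10300 lay at the 1000-base distance limit.

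The authors' signal value, a score per peak on a scale the sources used here do not state, was compared within a list only. In the middle of the range, members of the optimal list were lower than CpG-rich peaks by replicate 1's values and level by replicate 2's. The median was 33.69 for members and 38.04 for CpG-rich peaks in the optimal list (a log2 difference of -0.18), 25.44 and 29.85 in replicate 1 (-0.23), and 12.95 and 12.79 in replicate 2 (0.02). For peaks of the optimal list, the sign of that median difference thus differed between the replicates. The replicate 2 medians cover only peaks that a replicate 2 peak overlapped, 2297 of 2402 members and 2298 of 2549 CpG-rich peaks. In lists of 1 replicate alone the sign was the same, at -0.09 for replicate 1 and -0.12 for replicate 2. A disagreement between the replicates is therefore not established. Among the 50% of all peaks with higher signal, a set chosen by the compared value itself and holding 1050 members, the median difference was 0.14. At the upper end both replicates gave one direction. The 90th percentile was 110.0 for members and 79.20 for CpG-rich peaks in the optimal list (log2 difference 0.47), with 0.35 in replicate 1 and 0.61 in replicate 2. The 95th percentile was 175.1 for members and 103.3 for CpG-rich peaks (0.76), with 0.74 in replicate 1 and 0.88 in replicate 2. Of the 100 strongest single-gene promoter peaks, 85 were members in the optimal list, 84 by replicate 1 and 87 by replicate 2. Among all 26844 peaks, distal ones included, 15 members and 1 CpG-rich peak were in the strongest 200.

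By deciles of the signal of single-gene promoter peaks, the members' share was high at both ends. They made up 58.9% of the weakest decile, 38.4% of the seventh and 62.4% of the strongest in the optimal list. Replicate 1 had 64.8% in the weakest and 61.7% in the strongest decile. Replicate 2 had 45% in the weakest and 66% in the strongest decile, so the excess among weak peaks was seen in replicate 1 and not in replicate 2.

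**Figure D2:**
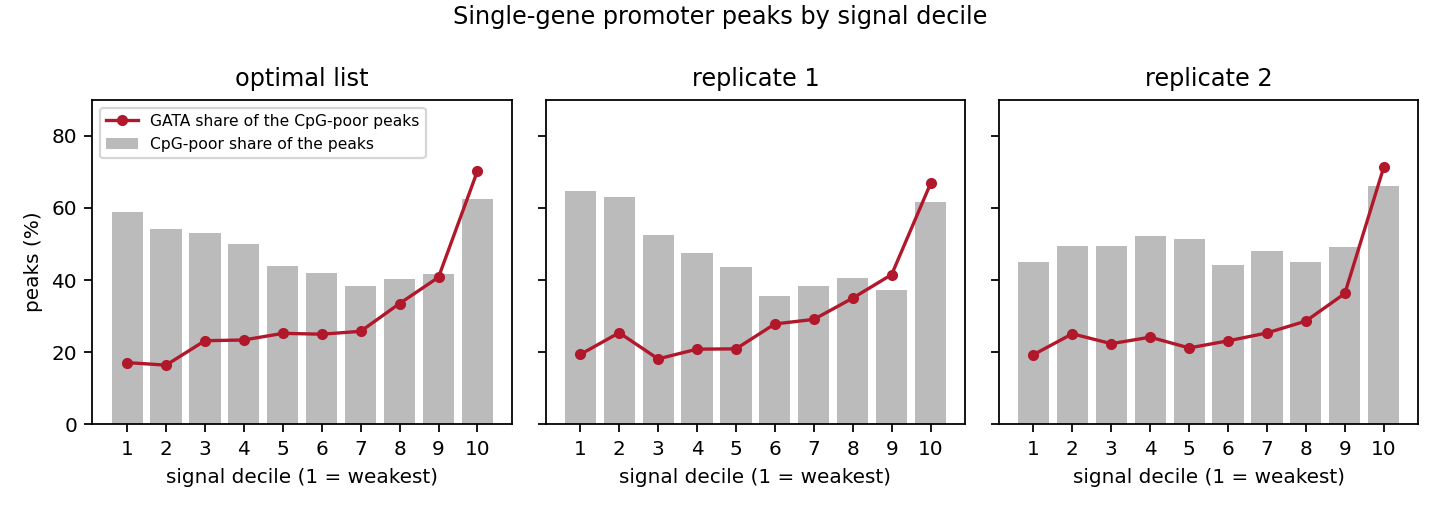
Single-gene promoter peaks sorted into deciles by signal (x axis, 1 = weakest) in the optimal list and by each replicate's value. The red line gives the percent of the CpG-poor peaks in each decile that hold a GATA word within 50 bases of the summit, and the grey bars the percent of the peaks that are CpG-poor. In the strongest decile the GATA share is 70.2% in the optimal list, 66.8% by replicate 1 and 71.3% by replicate 2.

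The strongest members included genes of the red cell line. Tmcc2 had a signal of 291.7 in replicate 1, 212.9 in replicate 2 and 504.2 in the optimal list, and Ostc, a subunit of the oligosaccharyltransferase, with 280.8, 203.9 and 485.4. Slfn14, a ribonuclease of the Schlafen family, had 266.1 in replicate 1, 165.5 in replicate 2 and 430.0 in the optimal list. Trim10 had 243.5, 159.7 and 405.2. Cpox had 226.1, 168.3 and 391.5. Sox6, a transcription factor that silences embryonic globin genes, had 243.7, 163.8 and 406.9, with its summit 977 bases inside the gene. Hemgn, a nuclear protein of blood-forming cells, had 230.4, 164.6 and 396.0, and its start is among the few with a TATA word at the usual place. March8, a membrane-bound ubiquitin ligase, and Vangl1, a planar cell polarity protein, had 396.2 and 384.2 in the optimal list, A930018P22Rik 419.1 and Depdc1b 400.3. All of these named members had a value in both replicates, between 226.1 and 291.7 in replicate 1 and between 149.6 and 212.9 in replicate 2. These lie far above the members' medians of 25.44 and 12.95.

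GATA words were most frequent at the strongest members. Within 50 bases of the summit, 737 members (30.7%, interval 28.8 to 32.6) held a GATA word, against 203 CpG-rich peaks (7.96%, 6.94 to 9.08). The members' share was 17.5% within 25 bases and 42.1% within 100 bases. In windows of the same length centred 500 bases to each side of the members' summits the share was 13.4%, and in windows centred on the first TSS of all 21670 protein-coding genes it was 7.90% (12.8% of the CpG-poor ones). Distal peaks held one at 46.2%. Of the strongest decile of members 182 of 240 held a GATA word (75.8%, 69.9 to 81.1), against 41 of 240 in the weakest decile (17.1%, 12.5 to 22.5). The median signal was 50.30 with a GATA word and 30.37 without in the optimal list, 35.62 and 23.00 in replicate 1, and 18.20 and 11.93 in replicate 2.

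GATA words hold few G and C bases, and base composition defined the members, so the shares were also taken at like GC content. Among windows of like GC content within 50 bases of the summit, from 50 to 55%, 31.5% of members and 11% of CpG-rich peaks held one. From 60 to 65% the shares were 21.7% and 6.17%, and from 40 to 45%, where CpG-rich peaks were few (84), 35.3% and 25% with overlapping intervals. Along the sequence the words were packed at the summit. Bins of 20 bases held one in 8.62% of members at the summit itself and in 2.5 to 3.66% of members more than 90 bases away, while CpG-rich peaks had 1.96% at the summit.

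**Figure D3:**
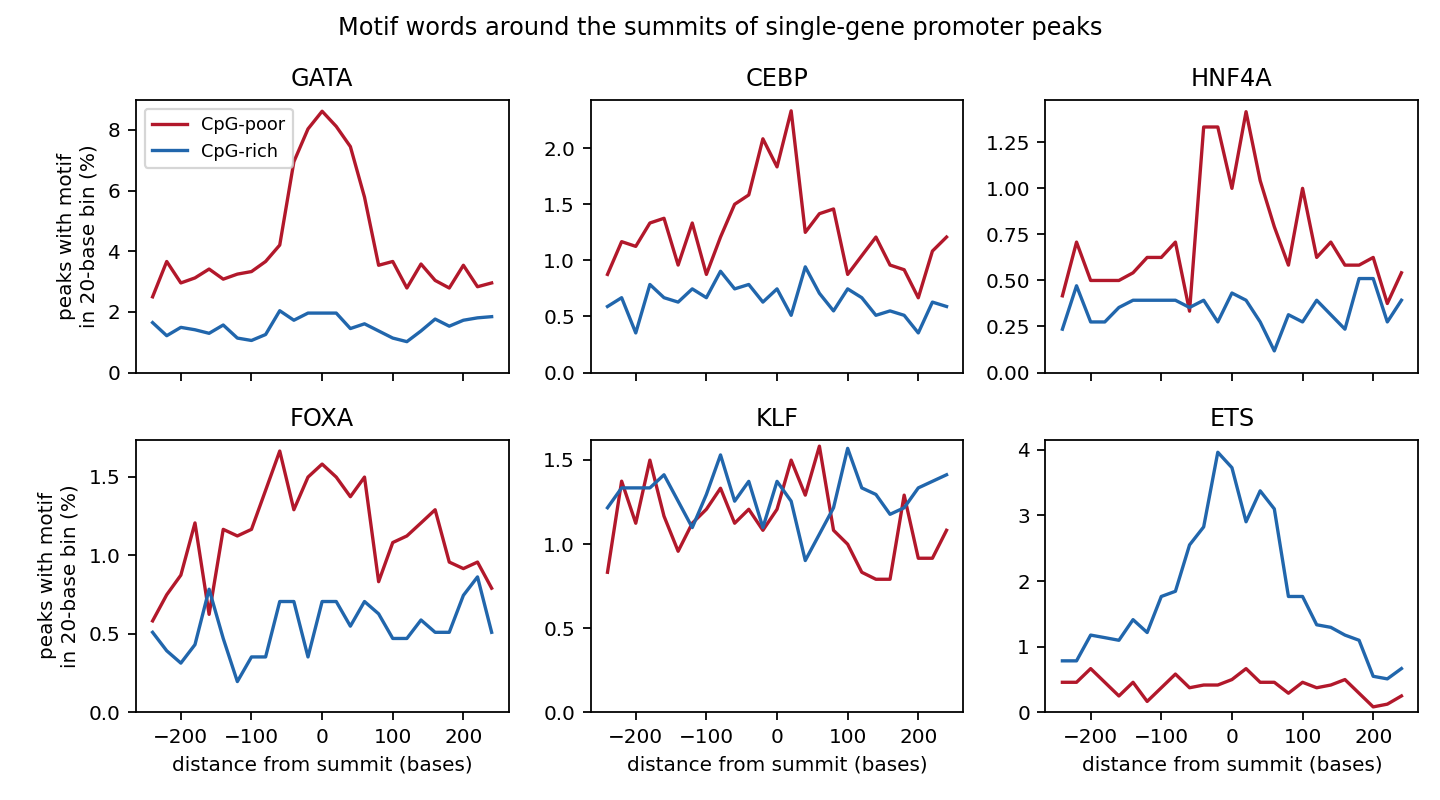
Percent of peaks with a motif word in each 20-base bin (y axis, scale differs by panel) by distance from the summit (x axis, bases), for CpG-poor (red, n = 2402) and CpG-rich (blue, n = 2549) single-gene promoter peaks. GATA words reach 8.62% of CpG-poor peaks at the summit against 1.96% of CpG-rich peaks, and the ETS word is higher in CpG-rich peaks.

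Words of hepatocyte factors were less common than GATA words, both at the summits and in the members' flanks, the windows to each side described above. GATA words were in 30.7% of members and 13.4% of flanks. The words differ in length and in the variants allowed, so the raw shares do not compare the factors. Relative to the flanks, the C/EBP and HNF4A words stood out about as much as GATA words, and the FOXA words less. A C/EBP word lay within 50 bases of the summit in 7.99% of members (interval 6.94 to 9.15) and 3.30% of CpG-rich peaks, with 3.52% in the members' flanks and 2.63% at all first TSSs. It was in 4.5% of members within 25 bases and 13.9% within 100 bases. The FOXA words were found in 6.83% of members and 2.79% of CpG-rich peaks (4.02% of flanks, 2.64% of first TSSs), and the HNF4A word in 5.37% and 1.65% (2.33% of flanks, 1.65% of first TSSs). The HNF1 word was in 14 members and 1 CpG-rich peak. Members with a GATA word and none of these 4 kinds numbered 644 and had a median signal of 51.63. The 349 with a hepatocyte kind and no GATA word had a median of 36.72, the 93 with both 45.79 and the 1316 with neither 28.91. In replicate 1 these medians were 36.22, 26.22, 30.68 and 22.44, and in replicate 2 18.61, 14.19, 14.95 and 11.51, so the order was kept. Of the 100 strongest members 78 were of the first kind, 2 of the second, 5 of the third and 15 of the last.

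The words typical of CpG-island promoters were scarcer in members than in CpG-rich peaks. The ETS word (CCGGAAG) was in 2.25% of members and 13.8% of CpG-rich peaks (6.79% of first TSSs), the GC box (CCCCGCCC, bound by SP factors) in 2.58% and 10.2% (11.8% of first TSSs), and the NRF1 word (GCGCNTGCG) in 0.167% and 2.59% (4.80% of first TSSs). Each of these words contains CpG, which the definition of the members limits. The NF-Y words (CCAATCA and CCAATGA) contain none and were in 3.79% of members and 7.57% of CpG-rich peaks (4.28% of first TSSs). At CpG-poor first TSSs the shares were 1.78% for the ETS word, 3.55% for the GC box, 0.648% for NRF1 and 3.25% for NF-Y. Against those starts, members were lower for the GC box and NRF1 words and not lower for the ETS and NF-Y words. The KLF word was equally frequent within counting error, at 5.62% of members (4.73 to 6.62) and 5.57% of CpG-rich peaks (4.71 to 6.53), against 5.85% of first TSSs. A TATA word (TATAAA) 20 to 40 bases upstream of the TSS was rare in both classes, at 46 members (1.92%, 1.41 to 2.55) and 35 CpG-rich peaks (1.37%, 0.958 to 1.90). Over all first TSSs it was found at 2.42%, and at 4.02% of CpG-poor ones.

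A member lay within 1 kb of a TSS for 1997 of 21670 protein-coding genes, or 9.22%. Most CpG-poor starts had no peak: 992 of the 11107 genes whose first TSS was CpG-poor had a promoter peak there (8.93%), against 3311 of 10563 with a CpG-rich first TSS (31.3%). By symbol, 1606 genes had 1 member and 7 had 4 members, among them Nfe2, Rab43, Slc3a2, Tnfaip8, Tns1 and Wipf1. Of the 1997 genes, 401 also had a CpG-rich promoter peak.

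Genes of hepatocytes and of red cell precursors held members more often than the 9.22% of all genes. Of 204 genes on 8 hepatocyte lists 97 had a member (47.5%, interval 40.5 to 54.6), and of 80 genes on 4 erythroid lists 42 had one (52.5%, 41.0 to 63.8). The lists were written with earlier results of these data known, so these shares are descriptions. They also depend on sequence: the first TSS was CpG-poor for 161 of the 204 hepatocyte genes and 43 of the 80 erythroid genes, against 51.3% of all genes. A CpG-rich promoter peak was at 20 of the hepatocyte and 16 of the erythroid genes, against 10.5% of all genes. With members held to both composition limits the shares were 22.1% on hepatocyte lists and 30% on erythroid lists, and in the 50% of peaks with higher signal they were 27% on hepatocyte lists and 46.2% on erythroid lists. The quartile ranges of the signals of both groups did not overlap. The strongest member of each erythroid gene had a median signal of 166.7 (quartiles 88.47 and 235.2), and that of each hepatocyte gene 40 (quartiles 28.61 and 59.64). In replicate 1 the median was 100.3 for erythroid and 29.75 for hepatocyte genes, and in replicate 2 it was 61.00 for erythroid and 12.44 for hepatocyte genes. Over all 1994 symbols with a member it was 26.49 in replicate 1 and 13.43 in replicate 2. A GATA word was at 29 of the 42 erythroid members and 22 of the 97 hepatocyte members. The HNF4A word was at 0 erythroid and 15 hepatocyte members, and the C/EBP word at 1 erythroid and 12 hepatocyte members. A TATA word 20 to 40 bases upstream of the TSS, rare among all members, was at 1 of the 42 erythroid (2.38%) and 9 of the 97 hepatocyte members (9.28%).

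**Figure D4:**
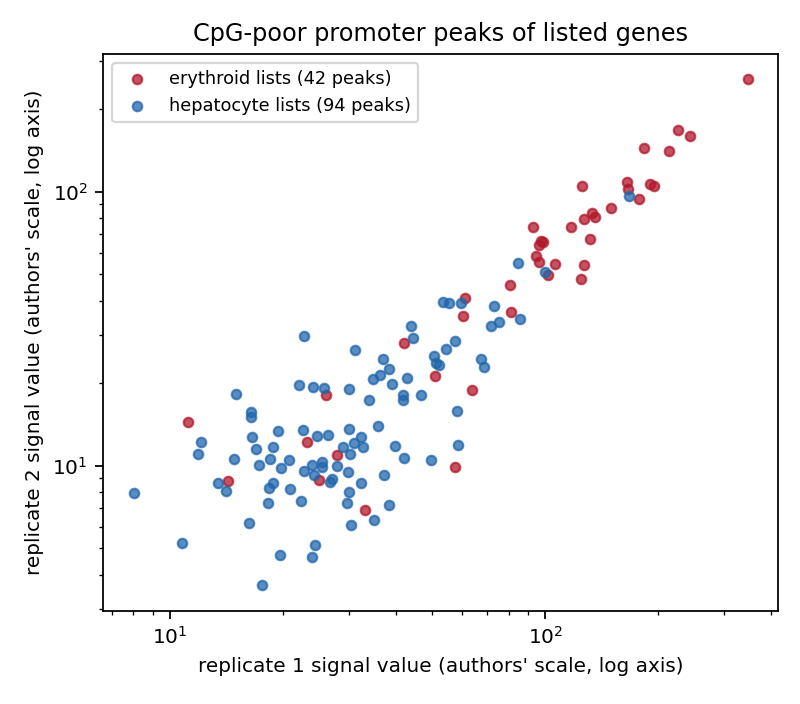
Signal of the strongest CpG-poor promoter peak of each listed gene in replicate 1 (x axis) and replicate 2 (y axis), both log axes on the authors' scale, for erythroid lists (red, 42 peaks) and hepatocyte lists (blue, 94 peaks with a value in both replicates). The erythroid medians are 100.3 and 61.00, the hepatocyte medians 29.75 and 12.44, and the strongest hepatocyte point is Pcx, at 167.0 and 96.82.

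Red cell surface and membrane skeleton genes had a member at 17 of 26, with a median signal of 171.7. Beside Trim10 they included Add2, an adducin of the membrane skeleton, with 165.2 in replicate 1, 108.5 in replicate 2 and 273.9 in the optimal list. Slc4a1, the band 3 anion exchanger, had 177.8, 94.12 and 273.2, and Epb42, protein 4.2, had 150.0, 87.14 and 237.5. All of these were high in both replicates. Genes of heme synthesis and iron had a member at 9 of 18, with a median of 168.3. Besides Cpox these included Uros, uroporphyrinogen III synthase (190.1, 107.3 and 298.8), Ppox, protoporphyrinogen oxidase (166.4, 102.4 and 272.5), and Fth1, the ferritin heavy chain (92.78, 74.56 and 168.3). All but Fth1, which stores iron, are enzymes of the heme pathway, and all of these genes had a GATA word within 50 bases of the summit.

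Erythroid transcription and signalling genes had a member at 13 of 27, with a median of 117.8. Nfe2, a factor that binds the globin control region, had 213.0 in replicate 1, 141.4 in replicate 2 and 353.8 in the optimal list, and it was among the 7 genes with 4 members. Lyl1, a relative of TAL1, had 182.6, 144.2 and 324.5, and Lmo2, a bridge in the TAL1 complex, 194.8, 105.5 and 299.9. Gfi1b, a repressor needed for red cell and platelet formation, had 131.7, 67.35 and 200.9. Klf1, the Kruppel-like factor of adult globin expression, had 126.7, 53.90 and 182.3. Globin genes had a member at 3 of 9: Hbb-bs with 126.5, 79.55 and 203.5, Hbb-bt with 50.72, 21.22 and 72.27, and Hbq1b with 23.23, 12.18 and 32.10. Globin genes have near-identical copies, and the handling of reads that align to several copies is not stated, so these values are uncertain.

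Hepatocyte secreted proteins had a member at 20 of 31. None of the 31 had a CpG-rich promoter peak, but the first TSS of 30 of them was CpG-poor, which leaves little room for one. The median signal at the 20 genes with a member was 49.60. Ahsg, the gene of fetuin-A, had 72.78 in replicate 1, 38.35 in replicate 2 and 110.0 in the optimal list. Fga had 75.08, 33.49 and 108.9, and Fgb, the fibrinogen beta chain, 43.93, 32.42 and 71.44. Itih3, a heavy chain of the inter-alpha-trypsin inhibitor, had 50.53, 25.24 and 77.18, and Hp, haptoglobin, 51.25, 23.82 and 74.83. Alb had 37.08, 9.251 and 49.91. Apart from Alb, these genes were named for having the highest values of the list. The 20 genes ran from 20.34 to 110.0 in the optimal list, on both sides of the members' median of 33.69. In replicate 2 the value of Alb lay below the members' median of 12.95. None of the 20 genes reached 171.7, the median of the red cell surface list. Coagulation and complement genes had a member at 10 of 29, among them C3 (57.59, 28.61 and 85.28), the clotting factor F11 (38.29, 22.49 and 58.44), the kininogen Kng1 (41.69, 17.42 and 58.33) and Cfb, complement factor B (32.28, 12.70 and 44.55).

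Metabolic genes of hepatocytes were covered unevenly. Urea cycle and amino acid genes had the highest share of the lists, 20 of 28, with a median of 44.98. Cth, which makes cysteine from cystathionine, had 99.94 in replicate 1, 51.14 in replicate 2 and 145.5 in the optimal list, followed by Mat1a, which makes S-adenosylmethionine (96.37), Uroc1 (93.93) and Hal (93.78) of histidine breakdown, and Got1 (75). Glucose and glycogen genes had a member at 8 of 16. Pcx, pyruvate carboxylase, had 167.0, 96.82 and 263.6, the highest value on any hepatocyte list, and a GATA word at its summit. Pck1 (107.5) and G6pc (93.79), both of glucose production, were lower. Bile acid and drug genes had a member at 13 of 28, led by the sulfotransferase gene Sult1a1 (81.11), Por (55.55), Cyp8b1 (49.36), Cyp7a1, which starts bile acid synthesis (41.23), and the bile acid importer Slc10a1 (40.15). Lipid genes had one at 9 of 30, led by Lcat (74.80), Ehhadh (58.93), Acsl1 (43.59), Cpt1a (39.43) and Lipc (38.47). Acute phase genes had one at 10 of 20, led by Hamp, which encodes the iron hormone hepcidin (73.94), Serpina3n (66.01), Apcs (56.86), Lcn2 (56.39) and Lbp (48.21). Hepatocyte transcription factor genes had one at 7 of 22: Hhex had 84.33, 55.12 and 140.7, and Nr0b2 (42.28), Nr1i2 (32.59), Rxra (26.17) and the rest lay between 23.07 and 42.28.

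**Figure D5:**
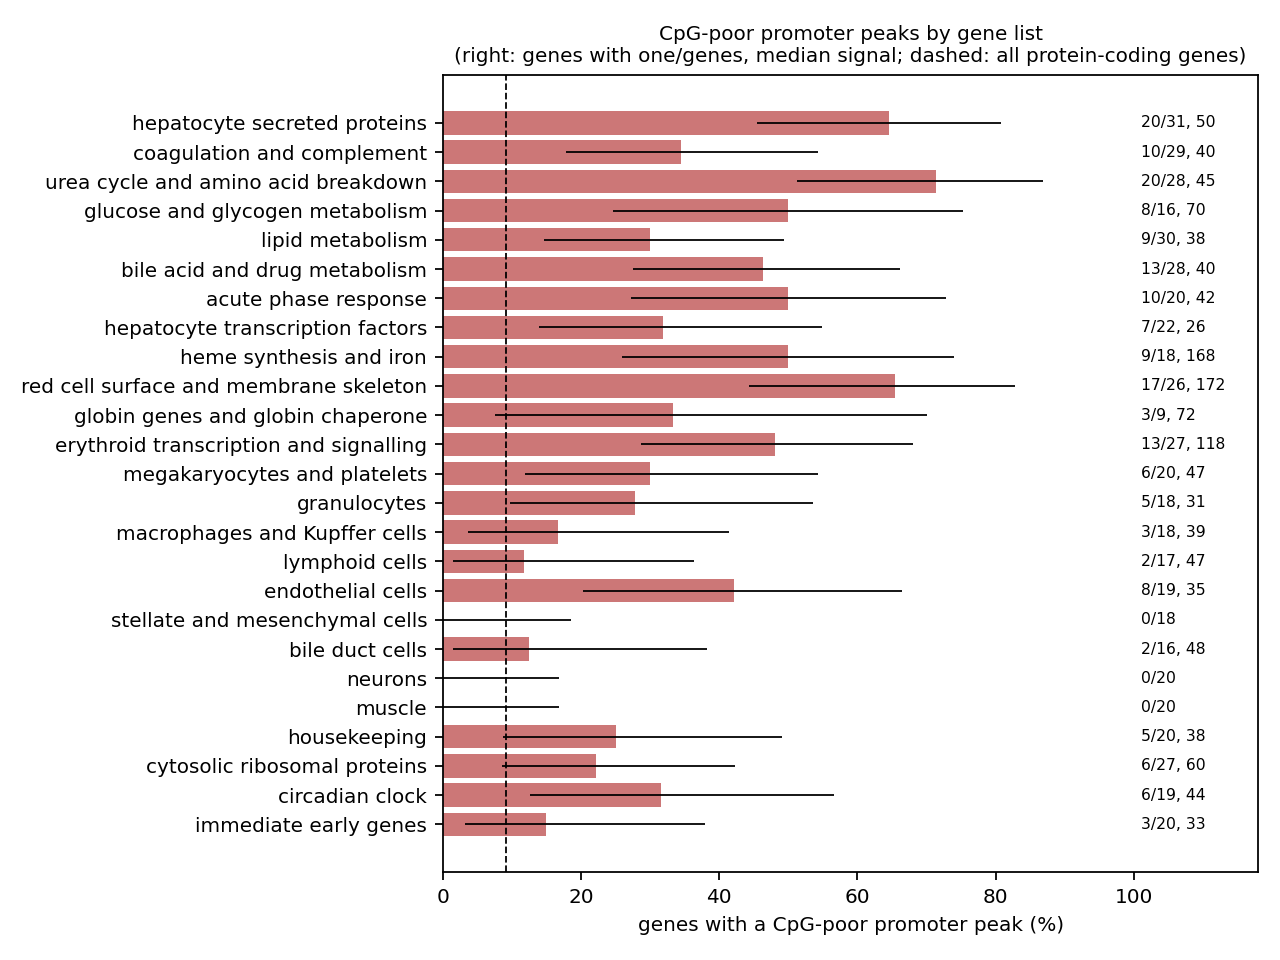
Percent of the genes of each list with a CpG-poor promoter peak within 1 kb of a TSS (bars, with exact 95% intervals as lines). To the right of each bar stand the genes with one over the genes listed and the median signal of their strongest such peak, and the dashed line marks the 9.22% of all protein-coding genes. The 4 erythroid lists have medians of 72.27 to 171.7, and the 8 hepatocyte lists 26.17 to 69.97.

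Lists of other blood and liver cell types with any member had median signals from 31.06 to 47.58. Endothelial genes had a member at 8 of 19, led by Esam (24.63 in replicate 1, 24.66 in replicate 2 and 49.57 in the optimal list), Oit3 (48.14), Stab1 (47.51), Plvap (36.46) and Lyve1 (32.93). Megakaryocyte and platelet genes had one at 6 of 20, led by Gp1ba (67.20), Itga2b (67.18) and Gp5 (60.42), each a subunit of a platelet adhesion receptor and each with a GATA word, then Plek (34.55) and Pf4 (31.41). Granulocyte genes had one at 5 of 18, from Mmp8 (37.89) to Retnlg (22.51), macrophage genes at 3 of 18 (Cd68, Spi1 and Mrc1, 41.63, 38.87 and 21.43), and lymphoid genes at 2 of 17 (Lck, 70.99, and Cd3d, 22.45). Bile duct genes had one at 2 of 16 (Hes1, 60.10, and Sox4, 35.06). The stellate and mesenchymal list had 0 of 18, and the neuron and muscle lists, which stand for tissues outside the liver, had 0 of 20 each, which allows shares of up to 18.5% and 16.8% by the exact interval. The 0 of the stellate, neuron and muscle lists is in each case within counting error of the 9.22% of all genes. The intervals of the macrophage, lymphoid and bile duct lists include 9.22% too.

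Of all protein-coding genes 9.22% had a member and 10.5% a CpG-rich single-gene promoter peak. Of 27 ribosomal protein genes 6 had a member and 17 a CpG-rich peak, and of 20 housekeeping genes 5 had a member and 8 a CpG-rich peak. Among the 27 listed ribosomal protein genes Rpl32 had the strongest member, with 176.8 in replicate 1, 114.2 in replicate 2 and 296.8 in the optimal list. Rpl27 (117.7), Rpl10 (65.79), Rpl7 (54.44) and Rpl30 (29.25) followed. Rpl32, Rpl7 and Rpl30 were members by GC share alone, with CpG ratios of 0.824, 0.735 and 0.968. Housekeeping members ran from Psmb4 (43.59) to Gpi1 (16.78). Clock genes had a member at 6 of 19, led by Per1 (57.84, 30.11 and 89.26), then Nr1d2 (45.26), Tef (44.61), Bhlhe40 (42.92) and Hlf (37.32). Immediate early genes had one at 3 of 20, Zfp36 with 86.05, 53.18 and 139.9, Btg2 with 33.42 and Junb with 7.841 in the optimal list. Junb had 66.43 and 28.82 in the replicates. A replicate's value is that of its strongest peak overlapping the member, so it can belong to a neighbouring summit.

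The strongest holders of hepatocyte words were not always on hepatocyte lists, and of the 8 named here all but Riok2 also held a GATA word within 50 bases of the summit. The C/EBP word was at Riok2, a kinase of ribosome assembly (226.4 in replicate 1, 138.6 in replicate 2 and 366.8 in the optimal list), and at Lpin2, a phosphatidate phosphatase (161.5, 92.00 and 255.3). FOXA words were strongest at March8 and at Metap2, a methionine aminopeptidase (335.3), HNF4A words at St5 (180.9) and Dpy19l1 (178.2), and HNF1 words at Glo1, glyoxalase 1 (142.5), and Rab3il1 (137.7). KLF words were strongest at A930018P22Rik and Pigq (295.6). The NFE2 word (GCTGANTCA, which contains the AP-1 word TGANTCA) was at 24 members, with Creg1 (191.1) and Zfand4 (113.4) the strongest. The TATA word within 50 bases of the summit was strongest at Dpy19l1 and Ermap, a red cell membrane protein (165.9).

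Overlap with the replicates' own lists was largely built in, because the optimal list derives from them and each holds 300000 peaks. A replicate 1 peak overlapped 99.6% of members and a replicate 2 peak 95.6%, against 99.8% and 90.2% of CpG-rich peaks. Among the strongest peaks of each replicate, as many as the optimal list holds, 1530 members were found in both (63.7%, interval 61.7 to 65.6), and the share of CpG-rich peaks lay within that interval (63.4%, 61.5 to 65.2). A peak with identical start, end and summit was in the conservative list for 68.1% of members and 66.1% of CpG-rich peaks. Classified by its own coordinates, that list held 2086 members. Across the 2287 members with a value in both, Spearman's rho between the replicates was 0.679, as a description of peaks that share libraries. The median log2 ratio of replicate 1 to replicate 2 was 0.96 for members (SD over peaks 0.705) and 1.25 for CpG-rich peaks (0.725), on scales that need not be equal. The most uneven members were Rras (55.48 in replicate 1 and 3.737 in replicate 2), Gm10681 (42.05 and 4.159) and Fcho1 (44.38 and 4.465) on one side, and Mrpl45 (5.126 and 18.04), Tex9 (5.728 and 16.49) and Lrmp (6.707 and 19.16) on the other. None of these 6 was among the strongest 12.

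Members stood in somewhat denser surroundings. At least 3 other peaks lay within 50 kb of 66.6% of members (64.7 to 68.5) and 58.4% of CpG-rich peaks (56.5 to 60.3), and no other peak within 10 kb of 28.4% and 37.8%. The summit base lay in repeat sequence, as the genome file marks it, for 10.4% of members, 6.55% of CpG-rich peaks and 9.64% of distal peaks.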

How the data were processed

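EP300 ChIP-seq peaks from 2 replicates of newborn mouse liver were analysed on build mm10, from the optimal and conservative lists, which were thresholded on the irreproducible discovery rate (IDR), and from each replicate's own list of 300000 peaks. Per the descriptions deposited with the lists, calling used a control alignment, and the IDR lists derive from the replicates' lists and from a list called on both together, whose signal the optimal list carries. Aligner, peak caller and versions were not given in the sources used here. The deposited signal value of each peak is the authors' score, on a scale that is not stated, and it was used to rank and describe peaks within a list. The lists hold no read counts and sequencing depth is unknown, so all intervals (exact Clopper-Pearson, 95%) cover the counting of peaks or genes only.

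Of 26883 peaks of the optimal list, the 26844 on chromosomes 1 to 19 and X were used. Start sites were those of protein-coding transcripts in GENCODE M21, and sequence came from RefSeq's GRCm38.p6 genome, the same assembly as mm10. The summit, composition and class of each peak followed the definition given above. A replicate's value for a peak was the signal of its strongest overlapping peak. The 21 motifs were fixed words searched on both strands within 50 bases of the summit, and 25 gene lists (2 of 536 symbols unmatched, C5 and Ahsp) were counted by genes with a member. Peaks of the same libraries are not replicates, so no test across peaks was made. Members, lists, motifs and alternatives were chosen with earlier results of these data known. Genes were named by rule: the 12 members with the highest signal, up to 5 per list, those nearest each limit, the 2 strongest with each of 8 motifs, the 3 highest and 3 lowest replicate ratios, and the genes with the most members. Some genes that this rule names are not reported here. Alternatives were the conservative list, the stronger 50% of the peaks, each replicate's own strongest 26883 peaks, other distances, windows and limits, and head-to-head pairs kept. The functions for composition, motifs and classes were tested on simulated data. Python 3.11.15, numpy 2.4.6, pandas 2.3.3, scipy 1.17.1, pysam 0.24.0 and matplotlib 3.10.9 were used. The pooled list was not used.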

Additional observations from a re-analysis of the deposited data

How the results depend on the processing

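Of 112 recomputed values, 65 changed little, 46 moved and 1 reversed. A share counted as moved outside its 95% interval, a signal difference or distance beyond 1 SD of the lists of 1 replicate alone, and a number of members beyond 1.5 times. The causes were not tested except where the alternative itself changes which peaks count. The reversed one was the median log2 signal of members minus CpG-rich peaks, which was 0.14 in the 50% of peaks with higher signal, against -0.18 in the full list. That alternative selects peaks by the value compared, so it restates the members' higher values at the upper end of the full list. The difference was -0.15 in the conservative list, -0.15 within 500 bases and -0.10 within 2 kb of a TSS. It was -0.09 with composition taken over 500 bases on each side, -0.20 under both composition conditions, and from -0.12 to -0.09 in single-replicate lists. In those stronger 50% there were 1050 members, 45.5% of the single-gene promoter peaks, with a median distance of 205 bases, 68.7% CpG-poor TSS windows, 95.5% in both top lists, 43.0% with a GATA word and 27.0% of hepatocyte-list genes. Under both composition conditions there were 1086 members (21.9%), with 397 bases, 45.3% CpG-poor TSS windows, 37.9% GATA, 11% C/EBP, 22.1% of hepatocyte-list genes and 30.0% of erythroid-list genes. Within 500 bases of a TSS, members were 41.0% of single-gene promoter peaks, with 146 bases, 70.3% CpG-poor TSS windows, 66.2% in both top lists and 26.3% GATA; within 2 kb the values were 58.4%, 626 bases, 57.5%, 65.1% and 35.3%, and 72.5% of erythroid-list genes had one. Composition over 100 bases on each side gave 53.5% members and 54.5% CpG-poor TSS windows, and over 500 bases on each side 74.9% such windows and a distance of 214 bases. The conservative list put 77.3% in both top lists, and keeping head-to-head pairs gave a member share of 45.1%. With 25 bases on each side of the summit 17.5% held a GATA word and 4.50% a C/EBP word, and with 100 bases 42.1% and 13.9%. The number of members was 1712 within 500 bases and 3589 within 2 kb. In lists of 1 replicate alone, the member share ran from 43.2% (replicate 1) to 57.1% (replicate 2), the share of CpG-poor TSS windows from 58.3% (replicate 2) to 64.6% (replicate 1), and the GATA share from 30.2% (replicate 2) to 31.3% (replicate 1). No paired analysis was possible because the labels give 1 group. Depth limits what the lists can show, and it is unknown here.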
